A study of Rattus norvegicus with 2 samples.

Results

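The genes described here encode the subunits of the transcription factor AP-1 and other transcription regulators of the immediate early class. They are the 10 rows of the deposited rat mRNA table whose symbol is Fos, Fosb, Fosl1, Fosl2, Jun, Junb, Jund, Egr1, Atf3 or Ier2, out of 22312 genes in all. The rule used their symbols, with earlier results of these data known. Each was found as 1 row, and 8 of the 10 passed the filter on low values, which asked for 1 FPKM or more on average. FPKM is a fragment density, scaled to the length of the transcript and the depth of the library. The libraries came from skin of male Sprague-Dawley rats, 4 weeks old, in a study of skin fibrosis after radiation. The irradiated library is from skin exposed once to 45 Gy of electrons. The non-irradiated library is from skin outside the treated area. There was 1 library per group, so differences are given without replicates and without any test of irradiation. The labels do not give the interval between exposure and sampling, the number of rats behind each library or any pooling. The source label names the irradiated library, whose title reads NC, an abbreviation that the labels do not expand. Every direction rests on that source label.

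AP-1 is a dimer of basic leucine zipper (bZIP) proteins that binds DNA at short palindromic elements in promoters and enhancers. JUN proteins can pair with each other or with FOS proteins, while FOS proteins need a partner such as a JUN protein. Many of these genes are immediate early genes: growth factors, stress or wounding switch them on within minutes, with no need for new protein, and their transcripts are then lost quickly. Signals reach their promoters through MAP kinases and the factors SRF and CREB, and phosphatases such as DUSP1 and RNA-binding proteins such as ZFP36 end the response. In skin, AP-1 takes part in keratinocyte growth and differentiation, wound repair and inflammation, and it is also induced by handling of tissue.

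The promoters of 4 members are shown. Those of Egr1, Ier2 and Jund carry classical elements through which immediate early genes respond to signals. In the Junb promoter the only match was a TATA box. The sequences are the 250 bases before the gene's start in RefSeq, build GRCr8, 5′ to 3′ on the gene's strand, with matches to 5 searched motifs in capitals. The capitals mark CArG boxes in Egr1, the cyclic AMP response element (CRE) in Ier2, a CRE and GC boxes in Jund, and a TATA box in Junb. The windows are chr18:26736828-26737077 on the plus strand for Egr1, chr19:40399123-40399372 on the plus strand for Ier2, chr16:18769772-18770021 on the minus strand for Jund and chr19:40080876-40081125 on the plus strand for Junb.
Egr1: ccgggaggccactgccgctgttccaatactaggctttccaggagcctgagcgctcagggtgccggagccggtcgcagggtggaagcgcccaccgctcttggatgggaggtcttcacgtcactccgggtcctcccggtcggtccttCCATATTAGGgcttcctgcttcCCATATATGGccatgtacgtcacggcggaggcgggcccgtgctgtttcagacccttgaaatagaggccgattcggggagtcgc
Ier2: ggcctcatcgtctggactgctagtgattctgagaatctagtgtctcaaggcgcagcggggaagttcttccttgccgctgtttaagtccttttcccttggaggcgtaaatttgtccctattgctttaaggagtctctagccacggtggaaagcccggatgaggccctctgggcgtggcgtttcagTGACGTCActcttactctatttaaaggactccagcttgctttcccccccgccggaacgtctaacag
Jund: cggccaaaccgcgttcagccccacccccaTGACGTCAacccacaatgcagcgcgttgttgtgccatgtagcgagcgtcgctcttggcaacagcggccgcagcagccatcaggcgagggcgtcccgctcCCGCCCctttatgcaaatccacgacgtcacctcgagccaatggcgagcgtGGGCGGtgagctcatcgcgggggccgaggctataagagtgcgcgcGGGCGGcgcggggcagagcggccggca
Junb: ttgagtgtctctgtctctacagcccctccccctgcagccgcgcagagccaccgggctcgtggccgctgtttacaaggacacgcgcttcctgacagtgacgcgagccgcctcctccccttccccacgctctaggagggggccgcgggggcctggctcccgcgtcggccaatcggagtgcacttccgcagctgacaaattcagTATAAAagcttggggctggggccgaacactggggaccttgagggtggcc

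The CArG boxes of Egr1, the binding element of SRF, were CCATATTAGG at positions -105 to -96 and CCATATATGG at -83 to -74, counted back from the start of the gene. Of 33469 rat promoter windows of this length 1.5% held a CArG box and 0.0209% held 2 or more. The CRE, TGACGTCA, lay at -66 to -59 in Ier2 and at -221 to -214 in Jund, and 1.59% of all windows held it. Junb had TATAAA at -49 to -44, and 12.9% of windows held that motif on either strand. The GC box, GGGCGG on either strand, stood 3 times in Jund, and 30.5% of windows held it. None of the 7 members with a window held TGACTCA or TGAGTCA, an element that AP-1 itself binds, against 4.05% of all windows. With 7 windows that absence cannot be told apart from this share. No matches overlapped within a window. Fosl1 and Fosl2 had 1 GC box each. Fosb had TTTATA, the TATA box motif on the other strand. Its window was counted back from a point 322 bases inside the gene's span, so all 250 bases lie within that span. G and C made up 43.6% of the Fosb window, 53.2% of Ier2, 62.0% of Fosl1, 63.2% of Egr1, 66.0% of Junb, 68.4% of Jund and 70.4% of Fosl2, against a median of 51.2% over all windows. The search was not made for Fos, Jun and Atf3.

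Among the 8 measured members Fos differed most between the libraries, and the other measured members lay within 2-fold. Fos stood at 9.63 FPKM in irradiated against 32.0 FPKM in non-irradiated skin, on an estimated 169 and 626 reads. The log2 ratio of irradiated over non-irradiated FPKM, with 1 FPKM added to each, was -1.63, which is 3.10-fold lower. The counts in the table are scaled, and the log2 ratio of these scaled counts was -1.74, with a 95% exact Clopper-Pearson interval of -1.99 to -1.49. Counting intervals below are of this second ratio; they cover counting error only, and PCR copies are not independent molecules. Fos (ENSRNOG00000008015) lies on chromosome 6 at 116249741 to 116252608 on the minus strand, in the coordinates of the table, whose genome build is not given in the sources used here. Of 9743 measured genes in the table, 149 or 1.53% were lower by 2-fold or more with irradiation, and 945 or 9.7% were higher by that much. Of the 8 measured members Fos alone, or 12.5%, passed 2-fold downward, and none passed it upward. Only 34 measured genes had a lower ratio than Fos.

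**Figure D1:**
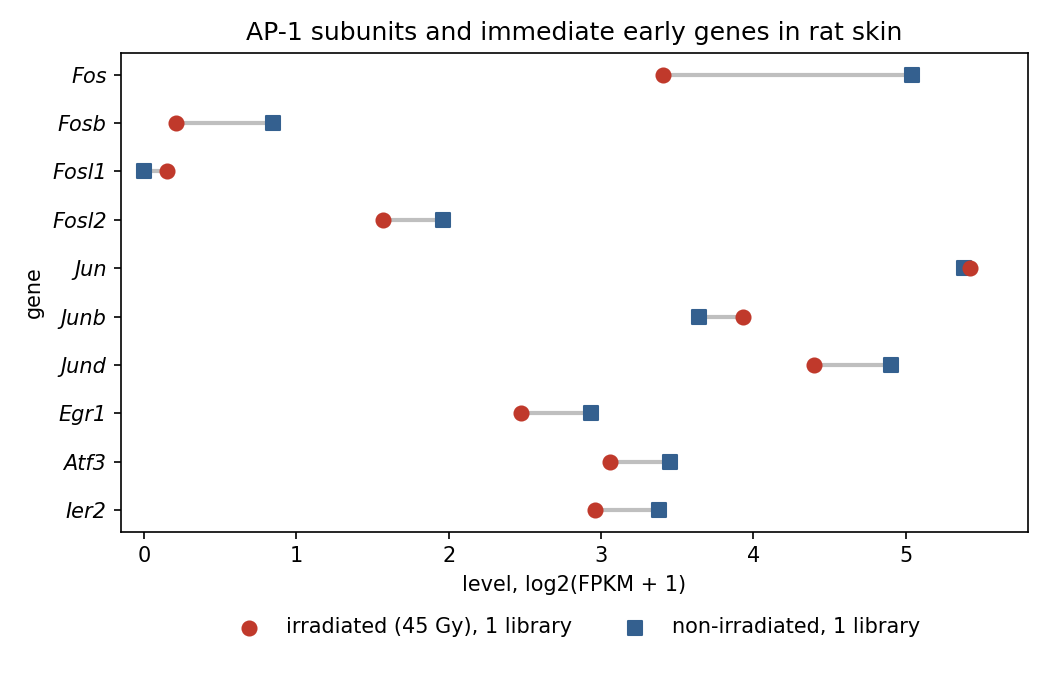
Levels of the 10 genes as log2(FPKM + 1), with a circle for the irradiated and a square for the non-irradiated library, 1 library each. The gap is widest for Fos, at 9.63 FPKM in irradiated and 32.0 FPKM in non-irradiated skin, while both marks for Jun nearly coincide.

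Fosb encodes a FOS protein that is induced with Fos in many cells, and it too had fewer reads in the irradiated library. It stood at 0.157 FPKM in irradiated against 0.799 FPKM in non-irradiated skin, so its mean fell short of the filter. These values rest on 6 and 34 reads. The log2 ratio of scaled counts was -2.35, with a wide counting interval of -3.90 to -1.08. With 1 FPKM added its log2 ratio was -0.64, which shows how strongly the added value compresses a gene at this level.

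Fosl2 encodes FRA2, a FOS-related protein that lacks the strong activation domain of FOS and is usually more stable. It stood at 1.96 FPKM in irradiated against 2.90 FPKM in non-irradiated skin, on 12 and 20 reads. Its log2 ratio was -0.40, and the counting interval of -1.75 to 0.51 spanned both directions, so no difference was detectable at this depth. Fosl1 encodes FRA1, a related protein of wound-edge and transformed keratinocytes. It had 2 reads in irradiated and 0 reads in non-irradiated skin, where 3 reads would equal 0.146 FPKM. Fosl1 was therefore at the limit of detection in both libraries, and no ratio is given. Its locus overlaps another row of the table, so even those reads are uncertain.

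By the deposited FPKM the JUN family had nearly the same summed level, 76.4 FPKM in irradiated against 81.3 FPKM in non-irradiated skin. The counting interval of the ratio of its scaled counts was -0.24 to 0.03 on the log2 scale. That interval does not cover the choice of scaling. With the trimmed-mean scaling the log2 ratios were -0.31 for Jun, -0.04 for Junb and -0.85 for Jund. Jun, the founding member and a strong activator, was the highest of the 10 genes in both libraries. It stood at 42.0 FPKM in irradiated against 40.8 FPKM in non-irradiated skin, on 431 and 469 reads. Its log2 ratio was 0.04, and the counting interval of -0.16 to 0.22 held 0.

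Junb encodes a JUN protein that often restrains JUN and cell growth. It stood at 14.3 FPKM in irradiated against 11.5 FPKM in non-irradiated skin, on 152 and 137 reads. The log2 ratio of 0.29 was the highest among the measured members and close to the median of all measured genes, 0.21. Its counting interval of -0.04 to 0.64 held 0. The signs of both Jun and Junb rest on the scaling: with the trimmed-mean scaling their log2 ratios were -0.31 and -0.04, and after centring on the median of all genes Jun stood at -0.17 and Junb at 0.08.

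Jund encodes the JUN protein that is expressed most steadily and responds least to growth signals in cultured cells. It stood at 20.1 FPKM in irradiated against 29.0 FPKM in non-irradiated skin, on 212 and 342 reads. The log2 ratio was -0.51 and its counting interval -0.79 to -0.29. Jund was thus lower by more than counting error but within 2-fold, while Jun was nearly equal in the same libraries.

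**Figure D2:**
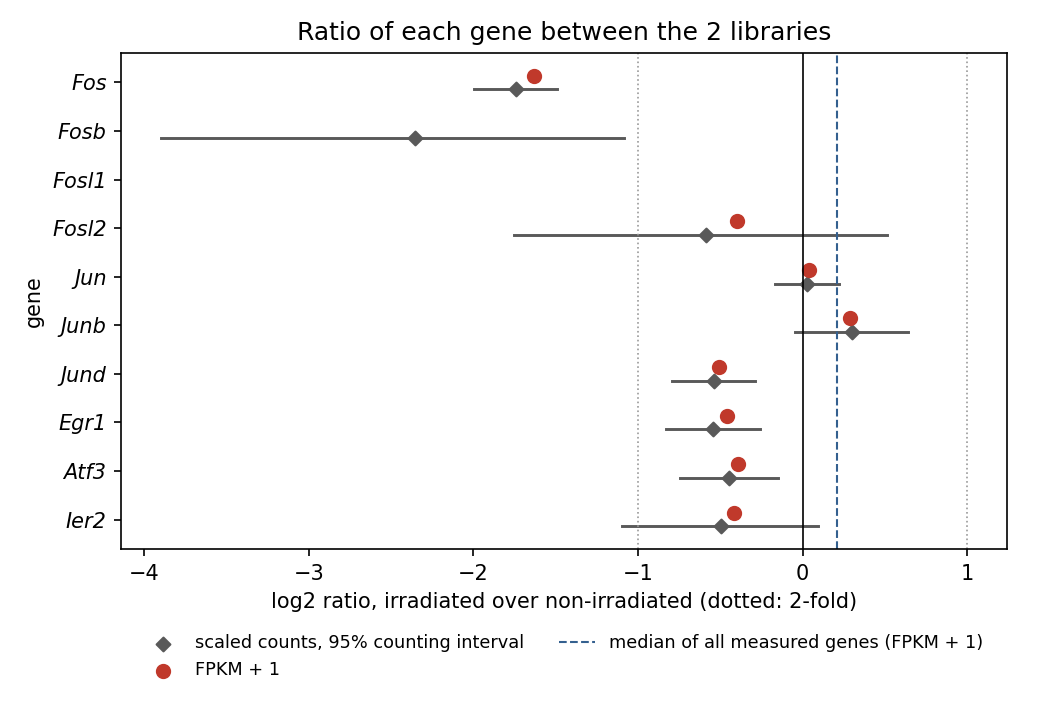
Log2 ratio of irradiated over non-irradiated skin for each gene, from FPKM + 1 (circles, measured genes) and from scaled counts (diamonds with 95% counting intervals). Fos lies left of the dotted 2-fold line on both scales, Fosb has a wide interval of -3.90 to -1.08 on 6 and 34 reads, and Fosl1 with 2 and 0 reads has no mark.

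The make-up of the AP-1 transcript pool differed accordingly. FOS family transcripts summed to 11.9 FPKM in irradiated against 35.7 FPKM in non-irradiated skin. They made up 13.4% of the summed JUN and FOS level in irradiated skin, against 30.5% in non-irradiated skin. JUN transcripts outweighed FOS transcripts 6.44 times in irradiated and 2.28 times in non-irradiated skin. By reads, 189 of 984 AP-1 reads were of the FOS family in the irradiated library, or 19.2% with an exact Clopper-Pearson interval of 16.8 to 21.8%. In the non-irradiated library they were 680 of 1628 reads, or 41.8% (39.4 to 44.2%). The shares differ between FPKM and reads because the gene models differ in length. Those of Jun, Junb, Jund and Ier2 span 1005, 1035, 1026 and 666 bases, a coding length without UTRs, while the Fos locus spans 2867 bases with introns. The proportion between the families therefore depends on these models, and the same models serve both libraries.

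Fos supplied most of the FOS family in both libraries, 81.2% of its FPKM in irradiated and 89.6% in non-irradiated skin. Fosl2 supplied 16.5% in irradiated and 8.13% in non-irradiated skin. Within the JUN family Jun held 54.9% and 50.2% in irradiated and non-irradiated skin. Jund held 26.4% in irradiated and 35.7% in non-irradiated skin, and Junb held 18.7% in irradiated and 14.1% in non-irradiated skin.

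**Figure D3:**
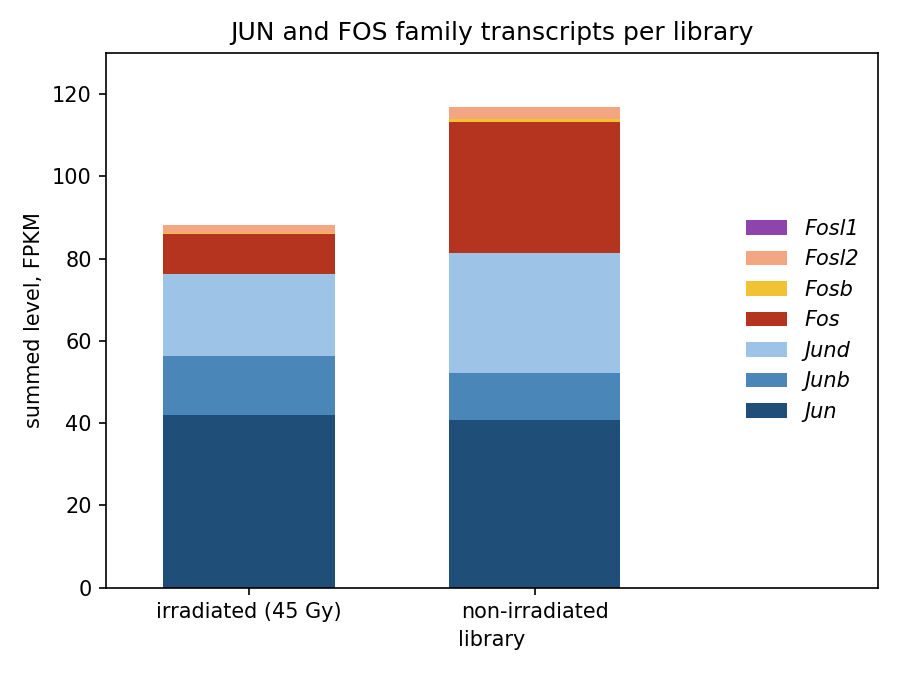
Summed FPKM of JUN family (blue) and FOS family (warm colours and purple) transcripts in the irradiated and the non-irradiated library, 1 library each. The JUN blocks reach 76.4 FPKM in irradiated and 81.3 FPKM in non-irradiated skin, while the Fos block is 9.63 FPKM in irradiated and 32.0 FPKM in non-irradiated skin.

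Egr1, Atf3 and Ier2, which answer the same signals outside the FOS and JUN families, were each slightly lower in the irradiated library. Egr1 encodes a zinc finger factor that binds GC-rich promoters, and its own promoter has the CArG boxes shown above. It stood at 4.57 FPKM in irradiated against 6.64 FPKM in non-irradiated skin, on 167 and 270 reads. The log2 ratio was -0.46 and the counting interval -0.83 to -0.26.

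Atf3, a bZIP factor induced by stress and DNA damage that can pair with JUN proteins, stood at 7.35 FPKM in irradiated against 9.96 FPKM in non-irradiated skin, on 157 and 237 reads. The log2 ratio was -0.39 and the counting interval -0.75 to -0.15. Ier2 encodes a nuclear protein that is induced early by growth factors. It stood at 6.78 FPKM in irradiated against 9.39 FPKM in non-irradiated skin, on 41 and 64 reads. Its log2 ratio was -0.42, and the counting interval of -1.10 to 0.09 held 0. Egr1, Atf3 and Ier2 thus lay close together, between -0.46 and -0.39.

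The order of the 10 genes by FPKM was the same in both libraries apart from Fos, which stood at rank 4 in irradiated and rank 2 in non-irradiated skin. In the irradiated library Jun was followed by Jund, Junb, Fos, Atf3, Ier2, Egr1, Fosl2, Fosb and Fosl1. The exact Poisson interval of Fos was 8.23 to 11.2 FPKM in the irradiated library, below that of Junb at 12.1 to 16.7 FPKM. In the non-irradiated library Fos at 29.5 to 34.6 FPKM overlapped Jund at 26.0 to 32.2 FPKM. Atf3 and Ier2 overlapped in both libraries, with 6.24 to 8.59 and 4.87 to 9.20 FPKM in the irradiated and 8.73 to 11.3 and 7.23 to 12.0 FPKM in the non-irradiated library.

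The 8 measured members had a median log2 ratio of -0.41, against 0.21 over all 9743 measured genes, where the quartiles were -0.09 and 0.56. Of the 8 members 6 had a ratio below 0, as had 32.0% of all measured genes, and 7 had a ratio below the median of all genes. The share of measured genes beyond 2-fold in either direction was 11.2%. Of those 86.4% were higher in the irradiated library, or 71.7% after centring on the median ratio and 62.9% with the trimmed-mean scaling.

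**Figure D4:**
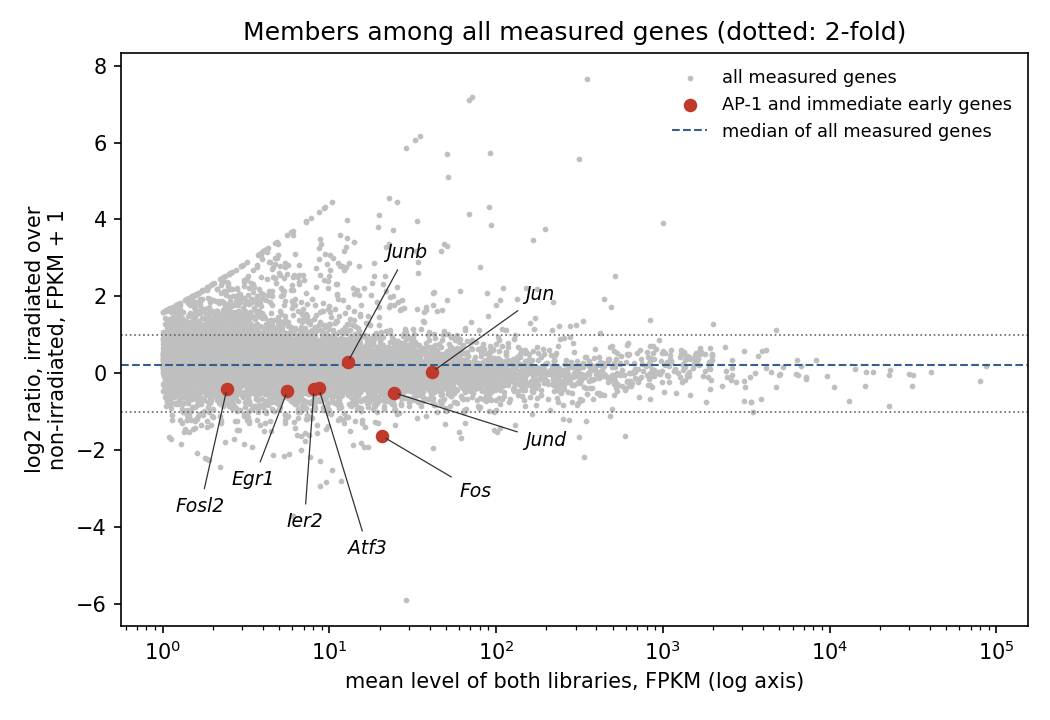
Log2 ratio of irradiated over non-irradiated FPKM + 1 against mean FPKM (log axis) for 9743 measured genes in grey and the 8 measured members in red. Fos lies at -1.63, below the dotted 2-fold line, and the other members lie between -0.51 and 0.29 while the dashed median of all genes is 0.21.

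In the pathway column of the deposited table, 9 of the 10 members carry a term. All 7 FOS and JUN genes are listed under osteoclast differentiation, a process in which AP-1 has a known part, a term that 123 genes of the table carry. Fos, Fosl1, Jun, Egr1 and Atf3 are among the 268 genes of HTLV-I infection. Fos, Jun and Jund are among the 252 genes of MAPK signalling, and Fos, Jun and Junb among the 106 genes of TNF signalling. Fos, Fosb and Jun are among the 64 genes of amphetamine addiction. These are the terms that 3 or more members share. Junb and Ier2 both lie on chromosome 19, Fos and Fosl2 on chromosome 6, and Fosb and Fosl1 on chromosome 1.

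The wider set of immediate early genes was mixed. Of 16 measured genes of this list, 2 passed 2-fold upward, 1 passed it downward and 13 stayed inside, around a median log2 ratio of 0.12. For this and each later list, the background over all measured genes was 9.7% upward and 1.53% downward. Both after centring on the median of all genes and with the trimmed-mean scaling, 1 passed upward and 2 downward. Myc, a driver of cell growth, stood at 8.58 FPKM in irradiated against 2.77 FPKM in non-irradiated skin (log2 1.35). Egr2, a relative of Egr1 with roles in hair follicles and myelinating Schwann cells, stood at 1.88 FPKM in irradiated against 0.260 FPKM in non-irradiated skin, on 65 and 10 reads. Its log2 ratio was 1.19, or 0.98 after centring, inside 2-fold. Egr2 passed the filter on low values only through the irradiated library. Hair follicle markers summed to 168 FPKM in irradiated against 49.2 FPKM in non-irradiated skin, with 8 of 8 at least 2-fold higher. Of these, Krt27, Lef1 and Hoxc13 passed the filter on low values only through the irradiated library. Schwann cell markers summed to 98.1 FPKM in irradiated against 51.0 FPKM in non-irradiated skin, with 3 of 4 measured at least 2-fold higher. No marker of either list was at 0, and their part in the Egr2 ratio was not tested.

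The single gene of the list at least 2-fold lower was Klf2, a factor of endothelial cells and lymphocytes. It stood at 3.21 FPKM in irradiated against 8.03 FPKM in non-irradiated skin (log2 -1.10). Nr4a1, a nuclear receptor induced together with Fos in many cells, had a log2 ratio of -0.95, or -1.16 after centring, at 16.3 FPKM in irradiated against 32.3 FPKM in non-irradiated skin. Klf2 and Nr4a1 were picked out after their values were seen. The most abundant genes of the list differed little: Tob1, an antiproliferative gene, had a log2 ratio of -0.18, and Klf4, a factor of keratinocyte differentiation, had -0.27.

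The feedback genes that end the response split in both directions. Of 10 measured genes, 3 passed 2-fold upward, 2 passed it downward and 5 stayed inside, around a median of 0.03. The background shares were 9.7% upward and 1.53% downward. Zfp36 encodes tristetraprolin, which speeds the decay of AU-rich transcripts, and it stood at 10.6 FPKM in irradiated against 27.2 FPKM in non-irradiated skin (log2 -1.28). Dusp1, a nuclear phosphatase of MAP kinases, stood at 16.8 FPKM in irradiated against 34.9 FPKM in non-irradiated skin (log2 -1.02). Both had the direction of Fos.

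Dusp6, a phosphatase specific for ERK, went the other way at 6.89 FPKM in irradiated against 2.52 FPKM in non-irradiated skin (log2 1.16). The other higher genes, named after their values were seen, were Nab2, a corepressor of EGR factors (log2 1.14), and Spry1, an inhibitor of growth factor signalling (log2 1.03). Nfkbia, the inhibitor of NF-kappa B, had a log2 ratio of -0.46. No feedback gene was at least 2-fold higher after centring on the median of all genes or with the trimmed-mean scaling.

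The kinases that carry the signal to AP-1 mostly lay within 2-fold. Of 20 measured genes of the MAP kinase cascade, 3 passed 2-fold upward and none downward, around a median of 0.18. Upward, the background share was 9.7%. Mapk13, the p38 delta kinase of epidermis, stood at 6.34 FPKM in irradiated against 0.437 FPKM in non-irradiated skin (log2 2.35), on 117 and 9 reads. Nras, a small GTPase upstream of RAF, had a log2 ratio of 1.27. Map2k7, a kinase that activates JNK, had 1.22 and was named after its values were seen. Mapk13 and Map2k7 passed the filter on low values only through the irradiated library. With the trimmed-mean scaling 1 gene of the cascade passed 2-fold upward. Hras and Map2k2, the most abundant genes of the list, had -0.09 and -0.08.

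All 9 measured SRF and CREB factors stayed inside 2-fold, around a median of 0.16. Mkl1, a coactivator of SRF, had the largest ratio at log2 0.77, and the CREB relatives Crem and Atf1 had 0.45 and 0.23. Srf itself, named for its part at CArG boxes, stood at 10.9 FPKM in irradiated against 10.5 FPKM in non-irradiated skin.

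Among 13 other measured bZIP factors 1 passed 2-fold downward and 12 stayed inside, around a median of 0.16. Cebpd, an acute phase factor, stood at 30.5 FPKM in irradiated against 89.7 FPKM in non-irradiated skin. Its log2 ratio of -1.53 was close to that of Fos. Its relative Cebpb had -0.63, and Atf4, a factor of the integrated stress response, had -0.48 at 201 FPKM in irradiated against 281 FPKM in non-irradiated skin.

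Genes known as AP-1 targets in skin and other tissues lay inside 2-fold or were higher. Of 13 measured targets, 5 passed 2-fold upward, none downward and 8 stayed inside, around a median of 0.65. Over all measured genes 9.7% passed 2-fold upward and 1.53% downward. With a mean of 5 FPKM or more required, 2 targets passed upward. Cd44, a hyaluronan receptor, stood at 13.2 FPKM in irradiated against 3.14 FPKM in non-irradiated skin (log2 1.77). Areg, which encodes the growth factor amphiregulin, stood at 3.70 FPKM in irradiated against 0.527 FPKM in non-irradiated skin (log2 1.62), on 44 and 7 reads.

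The other higher targets, named after their values were seen, were Ccnd1 (log2 1.28), which encodes cyclin D1, and the cornified envelope genes Tgm1 (log2 1.01) and Sprr1a. Sprr1a had 7 reads in irradiated and 0 in non-irradiated skin, and the lower limit of its counting interval was 0.68 on the log2 scale. Sprr1a, Tgm1 and Areg passed the filter on low values only through the irradiated library. Vegfa and Timp1, the most abundant targets, had log2 ratios of 0.65 and 0.12. Tgfb1, which encodes a profibrotic cytokine and was named after its values were seen, stood at 5.79 FPKM in irradiated against 7.61 FPKM in non-irradiated skin (log2 -0.34). With the trimmed-mean scaling 2 targets were at least 2-fold higher.

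Inducible heat shock genes, which handling of tissue can also raise, stayed inside 2-fold in all 6 measured cases, around a median of 0.13. Hspa1a, on 20 reads in irradiated and 22 in non-irradiated skin, fell below the filter on low values. So did Hspa1b, on 0 and 2 reads. The part of handling in any ratio was not tested. Dnajb1, a cochaperone, had the largest ratio at log2 0.71, and Bag3 had 0.29. The abundant chaperone genes Hsp90aa1 and Hspa5 differed little, Hsp90aa1 at 85.1 FPKM in irradiated against 85.3 FPKM in non-irradiated skin and Hspa5 at a log2 ratio of -0.24. Over these 7 lists 13 of 87 measured genes, or 14.9%, passed 2-fold upward and 4, or 4.6%, downward. The background shares were 9.7% and 1.53%. Of the list genes passing upward, Egr2, Mapk13, Map2k7, Areg, Tgm1 and Sprr1a passed the filter only through the irradiated library. With the trimmed-mean scaling 4.71% of the list genes passed upward and 5.88% downward, against 6.39% and 3.77% of all genes, so the upward share then lay below the background.

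**Figure D5:**
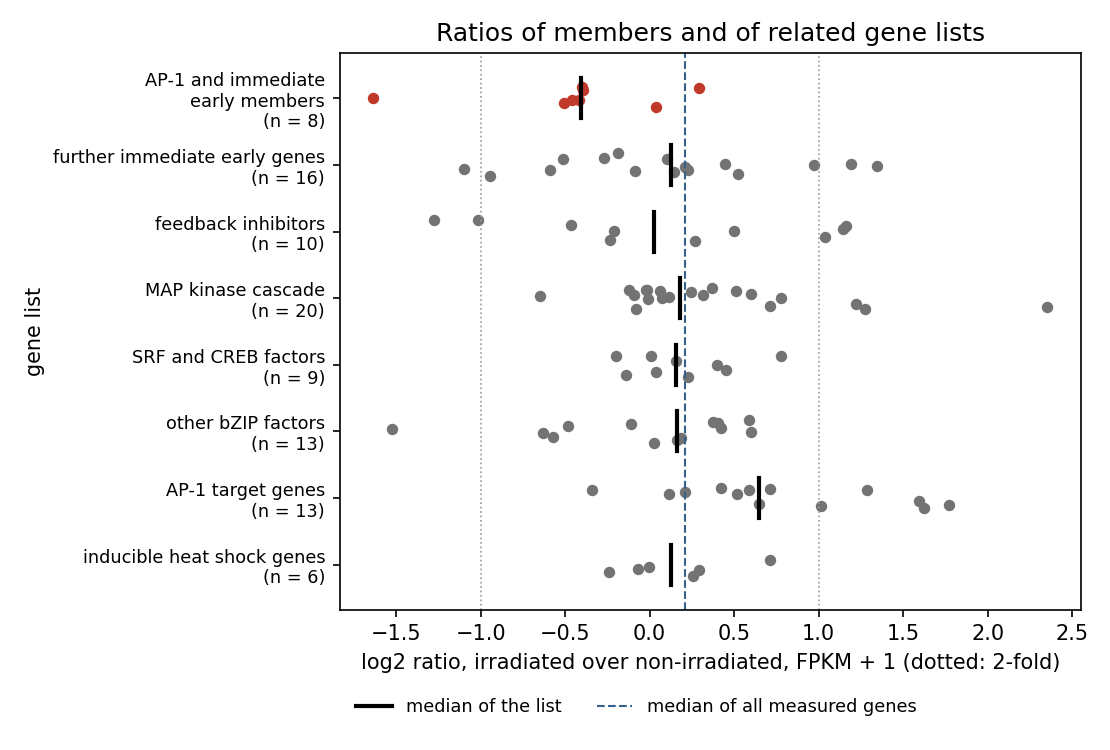
Log2 ratio of irradiated over non-irradiated FPKM + 1 for the measured members (red) and the measured genes of 7 related lists (grey), with a bar at each list's median and a dashed line at the median of all genes, 0.21. The member median is -0.41 and that of the AP-1 target genes is 0.65.

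Cell type markers were read in the same libraries. Basal keratinocyte markers summed to 1176 FPKM in irradiated against 67.6 FPKM in non-irradiated skin, with 7 of 8 measured markers at least 2-fold higher and none at 0. Of these, Col17a1 and Lamb3 passed the filter on low values only through the irradiated library. Differentiating keratinocyte markers summed to 2029 FPKM in irradiated against 146 FPKM in non-irradiated skin, with all 7 at least 2-fold higher. Krt10, Dsg1 and Dmkn of that list also passed the filter only through the irradiated library. Mapk13, Cd44, Areg, Ccnd1, Tgm1 and Sprr1a were higher in the library with more keratinocyte transcripts, and the part of these cells in their ratios was not tested. In bulk tissue a larger number of cells and more RNA per cell cannot be told apart.

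Fibroblast markers summed to 821 FPKM in irradiated against 1215 FPKM in non-irradiated skin, with 1 of 8 measured markers at least 2-fold lower. Endothelial markers summed to 21.1 FPKM in irradiated against 34.7 FPKM in non-irradiated skin, with 2 of 6 at least 2-fold lower. Below the filter, Cdh5 had 20 reads in irradiated and 8 in non-irradiated skin, and Kdr had 20 and 51. Their counting intervals were 0.23 to 2.86 for Cdh5 and -2.03 to -0.43 for Kdr. Mast cell markers summed to 3.55 FPKM in irradiated against 26.9 FPKM in non-irradiated skin, with both measured markers at least 2-fold lower. Of these, Cpa3 passed the filter only through the non-irradiated library. Among mast cell markers below the filter, Kit had 11 reads in irradiated and 7 in non-irradiated skin. Ms4a2 had 6 and 24 reads, and Tpsab1 had 5 and 7. None of the markers of these 3 lists was at 0. Adipocyte markers summed to 168 FPKM in irradiated against 384 FPKM in non-irradiated skin, mostly Fabp4, with 1 of 2 measured markers at least 2-fold lower. Erythrocyte markers summed to 517 FPKM in irradiated against 769 FPKM in non-irradiated skin, with all 3 within 2-fold. The part of any of these cell types in the lower values of Fos, Zfp36, Dusp1, Klf2 and Cebpd was not tested. Skeletal muscle markers were abundant, at a sum of 281324 FPKM in irradiated against 302840 FPKM in non-irradiated skin. The whole libraries summed to 1017836 FPKM in irradiated and 1002194 FPKM in non-irradiated skin. Of the 10 muscle markers 2 were at least 2-fold higher and none was at least 2-fold lower. The part of muscle in the ratios of the members was not tested. Macrophage markers summed to 256 FPKM in irradiated against 251 FPKM in non-irradiated skin, with all 8 within 2-fold. Of 5 neutrophil markers only S100a8 and S100a9 were measured, and 3 were at 0 in irradiated and 2 in non-irradiated skin. S100a8 stood at 173 FPKM in irradiated against 7.78 FPKM in non-irradiated skin, and S100a9 at 92.5 FPKM in irradiated against 8.41 FPKM in non-irradiated skin. Keratinocytes also express that pair. Sebaceous gland markers summed to 211 FPKM in irradiated against 14.3 FPKM in non-irradiated skin, with 6 of 6 at least 2-fold higher. Of these, Krt79 and Soat1 passed the filter only through the irradiated library, and Soat1 was at 0 in non-irradiated skin. Smooth muscle markers had 4 of 6 at least 2-fold higher. Their sum of 1421 FPKM in irradiated against 2286 FPKM in non-irradiated skin was mostly Des. Des stood at 1345 FPKM in irradiated against 2266 FPKM in non-irradiated skin. Every other marker of that list had more FPKM in irradiated skin. Cnn1 and Actg2 of the same list passed the filter only through the irradiated library.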

How the data were processed

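Per the labels' protocols, ribosomal RNA was removed from total RNA and stranded libraries were sequenced, 1 per group. Cufflinks, Cuffdiff, HISAT2 2.0.4 and cutadapt 1.9.3 are listed, per the submitters' processing notes, with no settings or roles. Whether counting used strand, and the genome build, is not given in the sources used here. Per the file headers, the authors deposited FPKM and count values per protein-coding gene. The values in the deposited count columns are a signal, not raw counts: 97.7% (irradiated) and 98.0% (non-irradiated) of those above 0 were whole multiples of 1.05 and 0.951, within 0.01 of a read plus 1e-05 per read. Dividing by these steps gave 11197464 and 12649562 estimated reads. Of the per-sample columns 0 were left unused.

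Rows with the same symbol were summed. Genes averaging 1 FPKM or more were kept, 9743 in all, and called beyond 2-fold on log2((irradiated FPKM + 1)/(non-irradiated FPKM + 1)). The added 1 FPKM understates differences of low genes. No count model or p-value was computed. Intervals are 95% exact Clopper-Pearson or Poisson intervals from estimated reads (python 3.11.15, scipy 1.17.1). A floor of 3 reads served for limits of detection and was not applied to the intervals. The Clopper-Pearson intervals of ratios were checked on counts simulated with Poisson error only. That check holds no PCR copies and no spread between animals, so it cannot speak to either. The members and lists were chosen with earlier results of these data known. Of 245 list entries 237 matched, 234 by symbol. All 10 members are named. Of each other pathway list, the 2 measured genes with the largest absolute ratio and the 2 with the highest mean are named. The genes named after their values were seen, including Srf, are outside this rule. Promoters are from RefSeq (GRCr8), matched by symbol for 7 members, and protein sequences were not used here. Alternatives varied the pseudocount, filter, unit and scaling.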

Additional observations from a re-analysis of the deposited data

How the results depend on the processing

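Fos kept its direction and stayed at least 2-fold lower under all 9 alternatives, with log2 ratios between -1.97 and -1.34 against -1.63 as reported. The outer values came from the trimmed-mean scaling and from a pseudocount of 5 FPKM. The count of members at least 2-fold lower was 1, and became 2 without the 100 highest genes and with no filter and a pseudocount of 0.1 FPKM together, a setting chosen after seeing the data. Fosb was the added member, at log2 -1.31 and -1.81. In the last setting 1 member, Fosl1 on 2 and 0 reads, counted as higher. Of the genes on the 7 related lists 13 passed 2-fold upward and 4 downward. The higher count was 2 with a pseudocount of 5 FPKM, 3 with a mean of at least 5 FPKM, 8 after centring on the median ratio, 4 with the trimmed-mean scaling and 33 with no filter and a pseudocount of 0.1 FPKM. The lower count was 2 with a pseudocount of 5 FPKM. In reads in place of FPKM, the FOS share of AP-1 was 19.2% in irradiated and 41.8% in non-irradiated skin. The trimmed-mean scaling moved FPKM ratios down by 0.35 on the log2 scale. Over all genes, 945 higher and 149 lower became 1562 and 252 with a pseudocount of 0.1 FPKM, and 266 and 48 with 5 FPKM. No paired analysis was possible because there was 1 library per group and no test. Depth limits Fosb, Fosl1, Fosl2 and Ier2, each on at most 64 reads per library.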
